A study of Mus musculus with 12 samples.

Results

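Primary mouse microglia carrying a TLR4 knockout label were compared after an ischemia-like exposure with reperfusion and after a control exposure. The comparison rests on 6 of the 12 arrays of the study. All probe sets with exactly 1 gene symbol were taken, and the brightest probe set stood for each gene, which gave 19938 genes. Of these, 15273 were above the 30th percentile of mean signal (a log2 signal of 5.359) and were tested. The 3 control arrays came from knockout-labelled cells kept under normoxic, normoglycemic conditions for 24 h. The 3 ischemia arrays came from knockout-labelled cells exposed to hypoxic or hypoglycemic conditions for 24 h. All cells then spent 24 h under normoxic, normoglycemic conditions, the reperfusion step, so the control cells also received that second period. The other 6 arrays are the same pair of treatments in wild-type microglia, with 3 arrays each. The labels do not describe how the gene was altered, nor the age of the mice, nor whether replicates came from separate cultures or animals, so each p-value reflects only how these samples spread, and that spread may be technical. The extraction note speaks of myocytes although the samples are labelled microglia, and the source field of the wild-type ischemia arrays reads control normoxia, whereas their titles give hypoxia by the study's own key.

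Microglia are the resident macrophages of the brain. They survey the tissue through receptors such as Cx3cr1, supply the complement subunits of C1q, and depend on signalling through the receptor for Csf1. Toll-like receptor 4 is the lipopolysaccharide receptor of myeloid cells. It signals through Myd88 to NF-kB and inflammatory cytokines, and through Ticam1 to type I interferon, which in turn drives interferon-stimulated genes. Low oxygen stabilises hypoxia-inducible factors, which drive glycolysis and angiogenic factors, and low cellular sterol activates the Srebf2 programme of cholesterol synthesis.

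Tlr4 itself was measured first. Its log2 signals were 8.97, 8.64 and 8.39 in knockout-labelled control arrays 1, 2 and 3, and 8.93, 8.76 and 8.59 in ischemia arrays 1, 2 and 3. The wild-type means were 8.76 in controls and 8.71 after ischemia, so Tlr4 was not lower in the knockout-labelled arrays. Where the probe set lies relative to the altered part of the gene was not examined. What the similar signal means for the label was not tested, and the arrays are called knockout-labelled throughout. The ischemia minus control change of Tlr4 was 0.10 (95% interval -0.12 to 0.31) on the log2 scale, with a limma adjusted p of 0.62, and it turned to -0.04 when control array 3 was left out of the fit without pairing.

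The 6 knockout-labelled arrays were close in overall signal. Upper quartiles of log2 signal ranged from 8.12 to 8.23, and the lowest correlation between arrays of 1 knockout-labelled group was 0.976. Control array 3 had the lowest median correlation with the other arrays, 0.976, against 0.982 to 0.987 for the other 5. Microglial markers had a summed unlogged signal of 13100 to 13600 in controls and 12800 to 13700 after ischemia, over 14 genes on the array, of which 1 was dim. Myocyte markers, 12 genes of which 1 was dim, summed to 858 to 969 in controls and 810 to 932 after ischemia, and none of the 11 tested passed the test used below.

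After ischemia and reperfusion, 82 genes were higher and 17 were lower in the knockout-labelled cells, which is 0.537% and 0.111% of the genes tested (limma with same-numbered arrays paired, Benjamini-Hochberg adjusted p under 0.05). Both shares are the background for each count of list members that passed in these cells. The rises were led by Pilra, an inhibitory receptor of myeloid cells, and Cd34, a sialomucin of progenitor and endothelial cells. The falls were led by Slco4a1, an organic anion transporter. The changes were modest: rises ran from 0.48 to 1.21 on the log2 scale with a median of 0.59, and falls from -1.08 to -0.451 with a median of -0.56. Pilra and Cd34 were the 2 rises of at least 2-fold, and Slco4a1 was the 1 such fall. In these bulk samples, fewer cells of a type and less RNA per cell cannot be told apart.

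These calls rest on the pairing of same-numbered arrays. Without the replicate block, limma called 0 genes, with a smallest adjusted p of 0.41, and 1334 genes had an unadjusted p under 0.05, against 2934 (19.2% of genes tested) in the paired fit. Of the 99 genes, 74 had an unadjusted p under 0.05 without the pairing. Leaving out a pair moved the count widely: 753 genes were called without pair 1, 4 without pair 2 and 2 without pair 3. All 99 genes kept their direction in each of these 4 fits, but that was fixed in advance. Each gene had the same sign in every pair, and the fit without the block gives the same mean change. Quantile normalization of the deposited values gave 83 higher and 37 lower, so 69.2% of its calls were higher, beside 82.8% here. Slco4a1 was the single gene called in all 11 alternatives that kept a replicate block, and Pilra, Cd34, Nes and Chst11 were called in 9 of them.

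All 82 rises were higher in each of the 3 pairs, where 20.8% of all genes tested were, and all 17 falls were lower in each pair, where 18.7% of all genes were. The control and ischemia groups did not overlap for 56 of the rises and 10 of the falls, against 7.94% and 6.36% of all genes tested. The genes were called from these same values, so both kinds of agreement largely follow from that choice and are no separate support. Control array 3 gave the lowest control value for 66 of the 82 rises, which is 80.5%. Among all genes tested with a change above 0, that share was 56.3%. Pair 1 gave the smallest change for 52 of the 82 rises, whose median change was 0.47 in pair 1, 0.60 in pair 2 and 0.72 in pair 3. The part of control array 3 in the rises was not tested apart from the fits that leave it out.

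The largest rises included several receptors of the myeloid surface. Pilra read 7.52, 8.64 and 7.40 in control arrays 1, 2 and 3, and 8.79, 9.56 and 8.84 in ischemia arrays 1, 2 and 3. All 3 ischemia arrays lay above all 3 controls, and Pilra rose 2.31-fold (log2 change 1.21, 95% interval 0.92 to 1.49, adjusted p = 0.00289). Its activating partner Pilrb1 rose by 0.73 (adjusted p = 0.0249), and as the genes are close paralogs their probes may read both transcripts. Clec5a, a lectin receptor that signals through the adaptor Tyrobp, read 9.78, 8.98 and 8.68 in controls and 10.35, 10.06 and 9.59 after ischemia. The groups overlapped because control array 1 was high, yet each ischemia array was above its own control, and Clec5a rose by 0.86 (adjusted p = 0.00547). Il13ra1, a subunit of the receptor for interleukin 13, read 8.71, 8.44 and 8.01 in controls and 9.33, 9.26 and 8.996 after ischemia. The groups were separate, and the rise was 0.81 (95% interval 0.58 to 1.03, adjusted p = 0.00535). Tfrc, the transferrin receptor that takes up iron, read 8.64, 7.74 and 7.20 in controls and 9.25, 8.78 and 8.09 after ischemia. It rose by 0.85 in an overlapping pattern in which control array 3 and ischemia array 3 were both the lowest of their group (adjusted p = 0.00535).

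**Figure D1:**
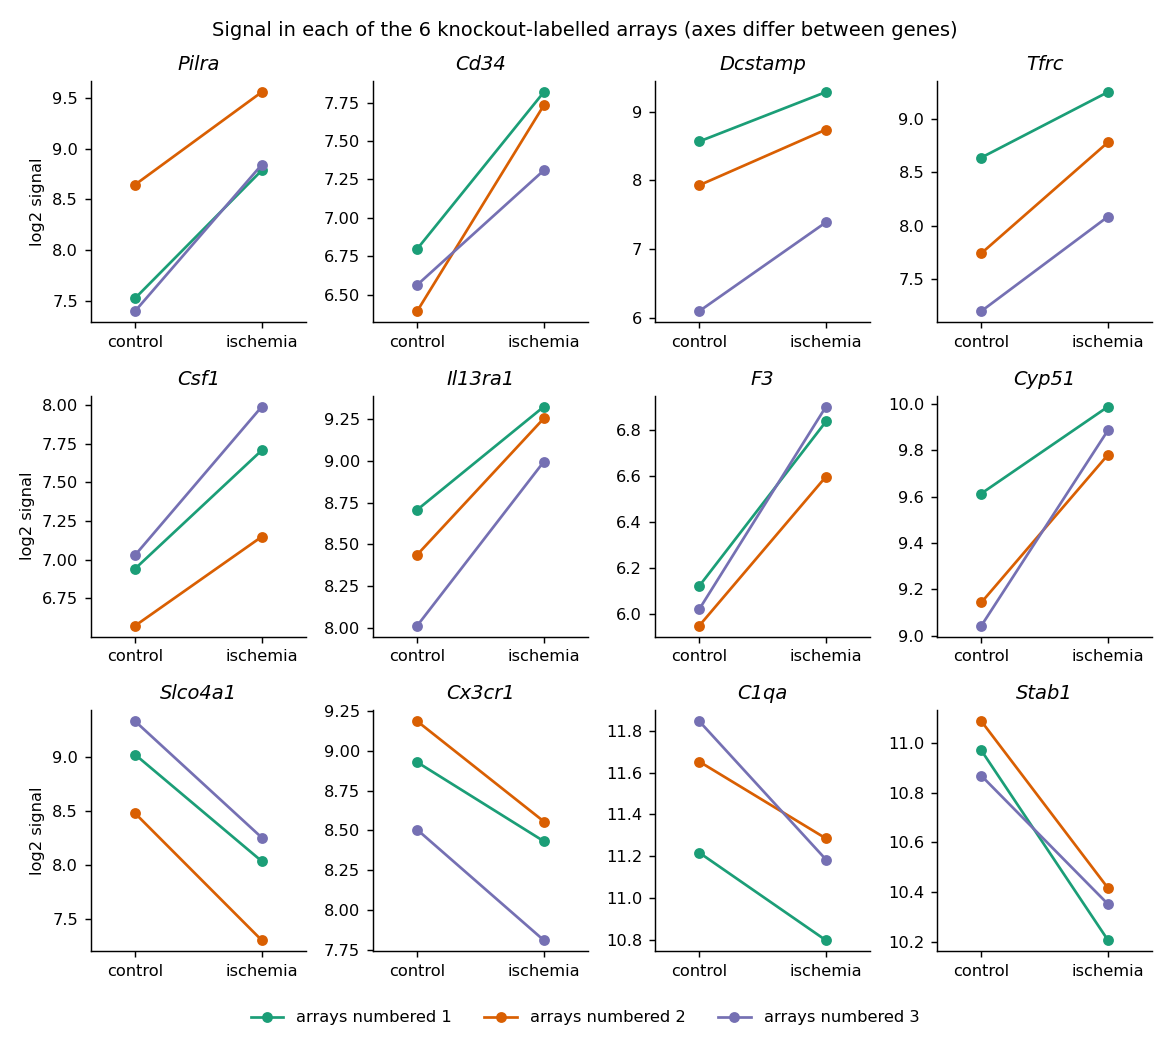
Log2 signal of 12 genes in the 6 knockout-labelled arrays, controls at the left and ischemia at the right of each panel, with lines joining same-numbered arrays. The lines rise for the 8 genes from Pilra to Cyp51 and fall for the 4 from Slco4a1 to Stab1, while the starting level differs between pairs, as for Dcstamp with controls of 8.57, 7.93 and 6.10.

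A further group of rises belongs to adhesion, progenitor and cell fusion genes. Cd34 read 6.80, 6.39 and 6.56 in controls and 7.82, 7.73 and 7.31 after ischemia. No arrays overlapped, and Cd34 rose 2.05-fold (log2 change 1.04, 95% interval 0.77 to 1.30, adjusted p = 0.0041), with an unadjusted p of 2.69e-05 without the pairing, the smallest of the 99 genes. Dcstamp, a membrane protein needed for fusion of osteoclasts and macrophage giant cells, rose by 0.94 (adjusted p = 0.0249). Its controls ran from 6.10 in array 3 to 8.57 in array 1, so the spread between pairs was wider than the change, and its unadjusted p without the pairing was 0.178. Nes, which encodes the intermediate filament nestin, rose by 0.84 and Tm4sf19, a tetraspan membrane protein, by 0.62. Of the 22 adhesion and progenitor genes tested, these 4 rose and none fell, beside 0.537% and 0.111% of all genes tested. The list's median change was 0.21 with 17 of 22 members above 0, beside a median of -0.00092 and 49.8% above 0 over all genes. That list was drawn up with Cd34, Nes and Dcstamp already known to be high. Among its other members the hyaluronan receptor Cd44 changed by 0.39 (adjusted p = 0.0666) and the integrin subunit Itga4 by 0.46 (adjusted p = 0.068), neither past the threshold.

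Csf1, F3 and Plaur, which act outside the cell or at its surface, also rose. Csf1, the growth factor on which microglia depend, read 6.94, 6.57 and 7.03 in controls and 7.71, 7.15 and 7.99 after ischemia. Its lowest ischemia array, number 2, stood just above its highest control, number 3, and Csf1 rose by 0.77 (adjusted p = 0.0223). Its receptor Csf1r changed by -0.13 (adjusted p = 0.465). Csf1 was the 1 of 9 colony-stimulating factor genes that passed, and the list's median change was -0.12. F3, the tissue factor that starts coagulation, read 6.12, 5.95 and 6.02 in controls and 6.84, 6.60 and 6.90 after ischemia. The controls lay close together and all ischemia arrays were higher, and F3 rose by 0.75 (adjusted p = 0.0121). Plaur, the receptor of urokinase, rose by 0.63 (adjusted p = 0.0249). Among the plasminogen and matrix genes Plaur was the 1 of 21 that passed. Its ligand Plau changed by 0.48 (adjusted p = 0.058), fibronectin Fn1 by 0.78 (adjusted p = 0.0702) and the gelatinase Mmp9 by 0.62 (adjusted p = 0.0836), while the list's median was -0.00.

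The other genes among the 20 largest rises have varied roles. Gm6377 rose by 0.84, the secreted Wnt antagonist Sfrp5 by 0.79, the chondroitin sulfotransferase Chst11 by 0.78 and the co-chaperone Dnajb4 by 0.77. Fam78b rose by 0.76, the ganglioside GM3 synthase St3gal5 by 0.72, the pseudophosphatase Styx by 0.71 and the mitochondrial ribosomal protein Mrpl42 by 0.71. Osgin2 rose by 0.68 and the efflux transporter Abcg2 by 0.67. Styx had the widest range over pairs among these, from 0.23 in pair 1 to 1.09 in pair 3. Styx, and Cd80 below, were each called in 6 of the 11 alternatives that kept a replicate block. Neither passed when the probe sets of a gene were averaged. Of the smaller rises, some were chosen for mention after their values were seen: the chemokine Ccl9 by 0.66, the chemokine receptor Ccr1 by 0.64, the costimulatory ligands Cd80 by 0.60 and Cd86 by 0.58, and the cytoskeletal proteins Vcl by 0.65 and Flnc by 0.65.

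**Figure D2:**
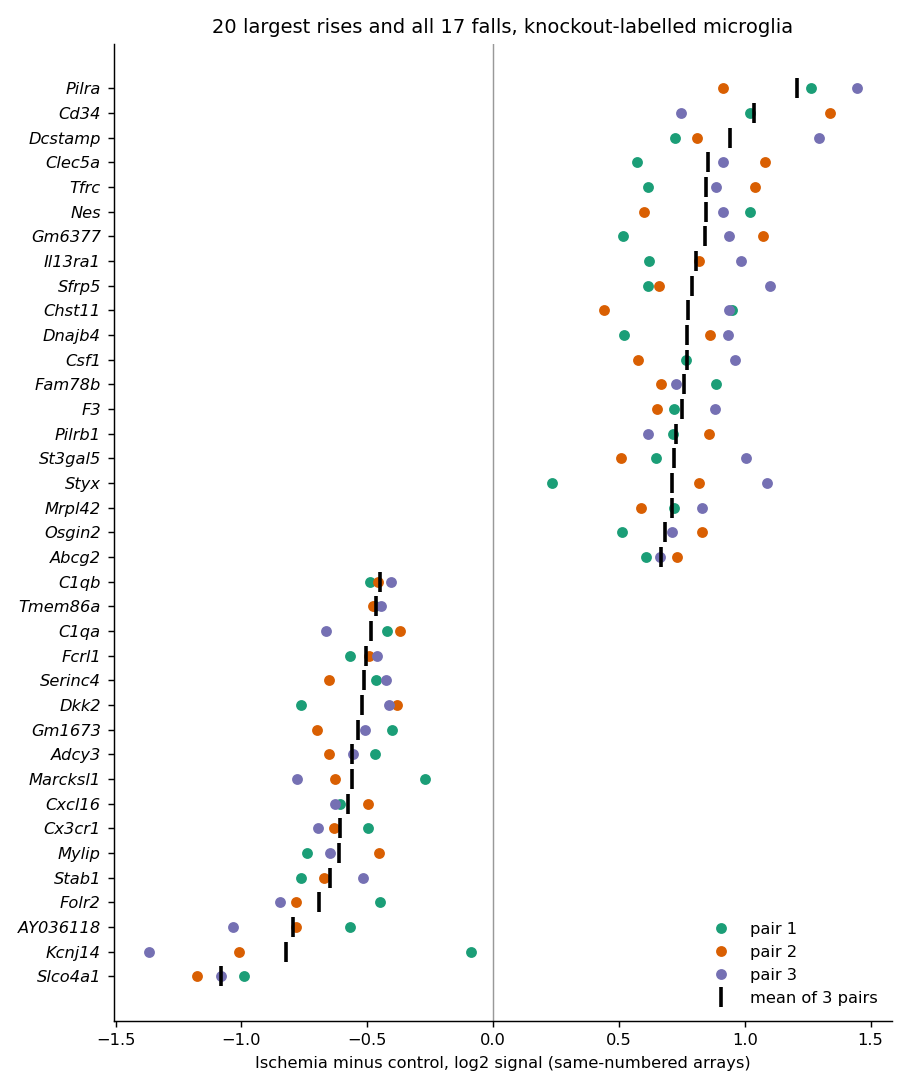
Ischemia minus control in log2 signal for each of the 3 pairs of knockout-labelled arrays, for the 20 largest rises and all 17 falls, with a bar at the mean. All points lie on the side of 0 given by the mean, and Kcnj14 comes nearest to 0 with -0.09 in pair 1.

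The genes that fell included surface genes of microglia and of perivascular macrophages. Slco4a1 read 9.02, 8.48 and 9.33 in controls and 8.04, 7.30 and 8.25 after ischemia. Every ischemia array was below every control, and Slco4a1 was 2.12-fold lower (log2 change -1.08, 95% interval -1.32 to -0.84, adjusted p = 0.00232). Cx3cr1, the fractalkine receptor that marks microglia, read 8.93, 9.19 and 8.50 in controls and 8.43, 8.56 and 7.81 after ischemia. The groups overlapped by a small margin, since array 3 was lowest in both, and Cx3cr1 fell by 0.61 (adjusted p = 0.0182). Of 21 homeostatic microglial genes tested, Cx3cr1 was the 1 that passed. The purinergic receptor P2ry12 changed by -0.07, Tmem119 by -0.04, Olfml3 by -0.39 (adjusted p = 0.0863) and P2ry13 by 0.33 (adjusted p = 0.115), and the list's median was -0.04 with 10 of 21 above 0.

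Among the complement C1q subunits, C1qa and C1qb passed as lower. C1qa read 11.22, 11.65 and 11.85 in controls and 10.80, 11.28 and 11.18 after ischemia, and C1qb 11.64, 12.03 and 12.13 against 11.15, 11.57 and 11.73. Array 1 was the lowest of each group for both genes, so the groups overlapped, but every pair went down. C1qa fell by 0.48 (adjusted p = 0.0374) and C1qb by 0.45 (adjusted p = 0.0474). Without the pairing their unadjusted limma p-values were 0.185 and 0.132. Of the 11 alternatives that kept a replicate block, C1qa was called in 6 and C1qb in 5. C1qb was not called when any of the pairs was left out. The remaining subunit C1qc changed by -0.37 (adjusted p = 0.101), with no overlap between groups. No other of the 13 complement genes tested passed, and the list's median was 0.06.

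Folr2, the folate receptor of tissue macrophages, read 8.60, 8.85 and 8.20 in controls and 8.15, 8.06 and 7.35 after ischemia, and it fell by 0.69 (adjusted p = 0.0258). Stab1, a scavenger receptor, read 10.97, 11.09 and 10.87 in controls and 10.21, 10.42 and 10.35 after ischemia, and it fell by 0.65 (adjusted p = 0.013). Both separated the groups. Pf4, a chemokine that is also a marker of border macrophages, went the other way and rose by 0.58 (adjusted p = 0.0249). Of the 9 border macrophage markers tested, 1 rose and 2 fell, beside 0.537% and 0.111% of all genes tested. The summed unlogged signal of all 12 on the array was 10600 to 11200 in controls and 9210 to 10800 after ischemia. The endothelial marker Flt1, a VEGF receptor also found on macrophages, rose by 0.55 (adjusted p = 0.0182), while Kdr changed by 0.33 and did not pass (adjusted p = 0.233). Endothelial markers summed to 1680 to 2120 in controls and 2070 to 2500 after ischemia over 7 genes, 3 of them dim. The part of other cell types in the changes of Cd34, Folr2, Stab1 and Flt1 was not tested.

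Among the other falls, Cxcl16, a membrane-bound chemokine, read 9.39, 9.58 and 9.70 in controls and 8.78, 9.09 and 9.07 after ischemia. It fell by 0.58 with no overlap (adjusted p = 0.0182). The inward rectifier potassium channel gene Kcnj14 fell by 0.82, but its change was -0.09 in pair 1 and -1.37 in pair 3. AY036118 fell by 0.80, the sterol-responsive ligase gene Mylip by 0.61, Marcksl1 by 0.56, the adenylyl cyclase Adcy3 by 0.56 and Gm1673 by 0.54. The Wnt antagonist Dkk2 fell by 0.52, Serinc4 by 0.51, Fcrl1 by 0.51 and Tmem86a by 0.46.

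Of the 22 pathway lists, sterol synthesis had the largest share of members higher in all 3 pairs. Of its 17 genes tested, 14 were above 0 and 12 were higher in all 3 pairs (70.6%, beside 20.8% of all genes). For 9 the ischemia arrays lay above the controls without overlap, beside 7.94% of all genes tested. The median change was 0.25, with pair medians of 0.24, 0.25 and 0.34. Of the 17, Cyp51 and Idi1 passed the test as higher and no member passed as lower, beside 0.537% and 0.111% of all genes tested. Cyp51, the lanosterol demethylase, read 9.61, 9.14 and 9.04 in controls and 9.99, 9.78 and 9.89 after ischemia. The groups were separate, with control array 1 nearest to the ischemia arrays, and Cyp51 rose 1.54-fold (log2 change 0.62, 95% interval 0.37 to 0.86, adjusted p = 0.0278). Idi1, the isopentenyl diphosphate isomerase, read 9.43, 9.11 and 9.04 in controls and 9.88, 9.57 and 9.79 after ischemia, and it rose by 0.55 without overlap (adjusted p = 0.0316).

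The other 15 sterol genes did not pass, and 3 of them, Mvd, Ebp and Dhcr7, had changes of -0.08 each. Hmgcs1, which makes the substrate of the rate-limiting reductase, changed by 0.35 (adjusted p = 0.132), the prenyl synthase Fdps by 0.37 (adjusted p = 0.124) and squalene synthase Fdft1 by 0.24 (adjusted p = 0.195). Squalene epoxidase Sqle changed by 0.35 (adjusted p = 0.0974), Msmo1 by 0.35 (adjusted p = 0.133), Nsdhl by 0.35 (adjusted p = 0.181) and Hsd17b7 by 0.38 (adjusted p = 0.0724). Of the regulators, Srebf2 changed by -0.05, Scap by -0.19 and Insig1 by 0.06, none past the threshold. Mylip, the ligase that marks the LDL receptor for degradation, read 9.03, 9.27 and 9.63 in controls and 8.29, 8.81 and 8.98 after ischemia, a separation of the groups by a fall of 0.61 (adjusted p = 0.0242). Mylip is a target of liver X receptors, and of 8 such targets tested it was the 1 that passed. The cholesterol exporters Abca1 and Abcg1 changed by -0.35 (adjusted p = 0.161) and -0.25 (adjusted p = 0.21), Pltp by -0.36 (adjusted p = 0.122), and the list's median was -0.16. Among 15 fatty acid synthesis genes limma called 0, with a smallest adjusted p of 0.119. An unadjusted p under 0.05 was found for 4, beside 19.2% of all genes tested, or for 0 without the pairing.

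Promoters of 3 sterol enzymes are shown, since 12 of the 17 members were higher in all 3 pairs although only 2 passed. RefSeq windows of 300 bases around the annotated start (build GRCm38.p6) were held for 14 of the 17 genes. All 14 contained CCAAT on either strand, beside 41.3% of the 12054 tested genes with a window, and 1 of 14 contained TCACNCCAC, a form of the sterol regulatory element core, beside 1.48%. The CCAAT search was added after the windows had been seen, and the match is a description of letters, not of a bound site. The windows of Cyp51 (chr5:4104648-4104947, minus strand) and Idi1 (chr13:8885356-8885655, plus strand) are those of the 2 genes that rose, with CCAAT or its complement ATTGG in capitals. The window of Hmgcs1 (chr13:119690101-119690400, plus strand) is added as the 1 with the sterol regulatory element core, in capitals.
Cyp51: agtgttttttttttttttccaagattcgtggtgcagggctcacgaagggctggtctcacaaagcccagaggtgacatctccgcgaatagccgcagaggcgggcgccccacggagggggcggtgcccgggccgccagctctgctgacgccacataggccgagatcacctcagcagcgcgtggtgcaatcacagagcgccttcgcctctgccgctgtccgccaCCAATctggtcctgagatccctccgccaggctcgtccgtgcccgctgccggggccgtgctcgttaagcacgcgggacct
Idi1: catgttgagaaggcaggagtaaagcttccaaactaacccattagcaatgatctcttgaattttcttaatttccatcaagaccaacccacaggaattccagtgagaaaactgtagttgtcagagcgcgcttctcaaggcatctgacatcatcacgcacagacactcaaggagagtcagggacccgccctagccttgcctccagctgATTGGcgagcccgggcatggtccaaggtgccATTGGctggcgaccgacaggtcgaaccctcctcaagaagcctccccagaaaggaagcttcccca
Hmgcs1: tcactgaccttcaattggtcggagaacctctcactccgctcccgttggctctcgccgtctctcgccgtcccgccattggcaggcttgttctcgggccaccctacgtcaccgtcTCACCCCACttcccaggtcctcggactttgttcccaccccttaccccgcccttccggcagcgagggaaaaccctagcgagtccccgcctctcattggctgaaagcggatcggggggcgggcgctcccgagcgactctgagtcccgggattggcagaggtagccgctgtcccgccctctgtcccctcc

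Glycolysis and hypoxia genes had medians above 0 but no member passed after the 24 h of reperfusion. Of 17 glycolysis genes, 15 were above 0 and 9 were higher in all 3 pairs (20.8% of all genes tested were), with a median of 0.25. In limma 9 had an unadjusted p under 0.05 (5 without the pairing), beside 19.2% of all genes tested, and the smallest adjusted p was 0.0819. That gene was Pgk1, the phosphoglycerate kinase, with 11.52, 11.26 and 10.97 in controls and 11.80, 11.61 and 11.44 after ischemia, a change of 0.37. The groups overlapped while every pair went up. The glucose transporter Slc2a1 changed by 0.37 (adjusted p = 0.119), hexokinase Hk2 by 0.33 (adjusted p = 0.153), Pfkp by 0.32 (adjusted p = 0.103), Ldha by 0.27 (adjusted p = 0.172) and Tpi1 by 0.34 (adjusted p = 0.199). Pair medians of the glycolysis list were 0.29, 0.31 and 0.16.

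Of 26 targets and regulators of hypoxia-inducible factors, 20 were above 0 and 13 were higher in all 3 pairs, with a median of 0.13. Of all genes tested, 20.8% were higher in all 3 pairs. In limma 13 of the 26 had an unadjusted p under 0.05 (8 without the pairing), 11 of the 13 above 0, beside 19.2% of all genes tested. The mitophagy receptor Bnip3 read 7.23, 6.97 and 6.75 in controls and 7.62, 7.37 and 7.22 after ischemia, a change of 0.42 (adjusted p = 0.0568). Pdk1, which restrains pyruvate entry into mitochondria, changed by 0.48 (adjusted p = 0.058), the angiogenic factor Vegfa by 0.36 (adjusted p = 0.109), the oxidoreductase Ero1a by 0.39 (adjusted p = 0.109) and the prolyl hydroxylase P4ha1 by 0.32 (adjusted p = 0.122). Hif1a itself changed by 0.30 (adjusted p = 0.127). Ndrg1 went against the list, at 9.46, 9.37 and 9.68 in controls and 8.995, 8.98 and 9.16 after ischemia, a change of -0.46 with no overlap (adjusted p = 0.101). Hilpda, a lipid droplet protein and hypoxia target that is outside the list and was chosen after its values were seen, rose by 0.58 (adjusted p = 0.0223).

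The core of the hypoxia response element, ACGTG on either strand, was in the windows of 17 of the 21 hypoxia genes with one (81%) and 12 of 16 glycolysis genes (75%), beside 27% of all. The variant GCGTG was in 13 of 21 and 9 of 16, beside 51%. A palindromic CACGTG counts on both strands. Pgk1 (chrX:106186850-106187149, plus strand) was chosen for printing after its values were seen, as the glycolysis gene with the smallest p, and ACGTG and its complement CACGT are in capitals.
Pgk1: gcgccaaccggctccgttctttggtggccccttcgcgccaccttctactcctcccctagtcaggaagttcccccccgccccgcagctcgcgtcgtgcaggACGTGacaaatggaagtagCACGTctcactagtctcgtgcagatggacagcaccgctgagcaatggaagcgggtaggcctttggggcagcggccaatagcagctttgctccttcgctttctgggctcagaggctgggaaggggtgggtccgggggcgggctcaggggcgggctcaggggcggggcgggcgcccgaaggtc

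**Figure D3:**
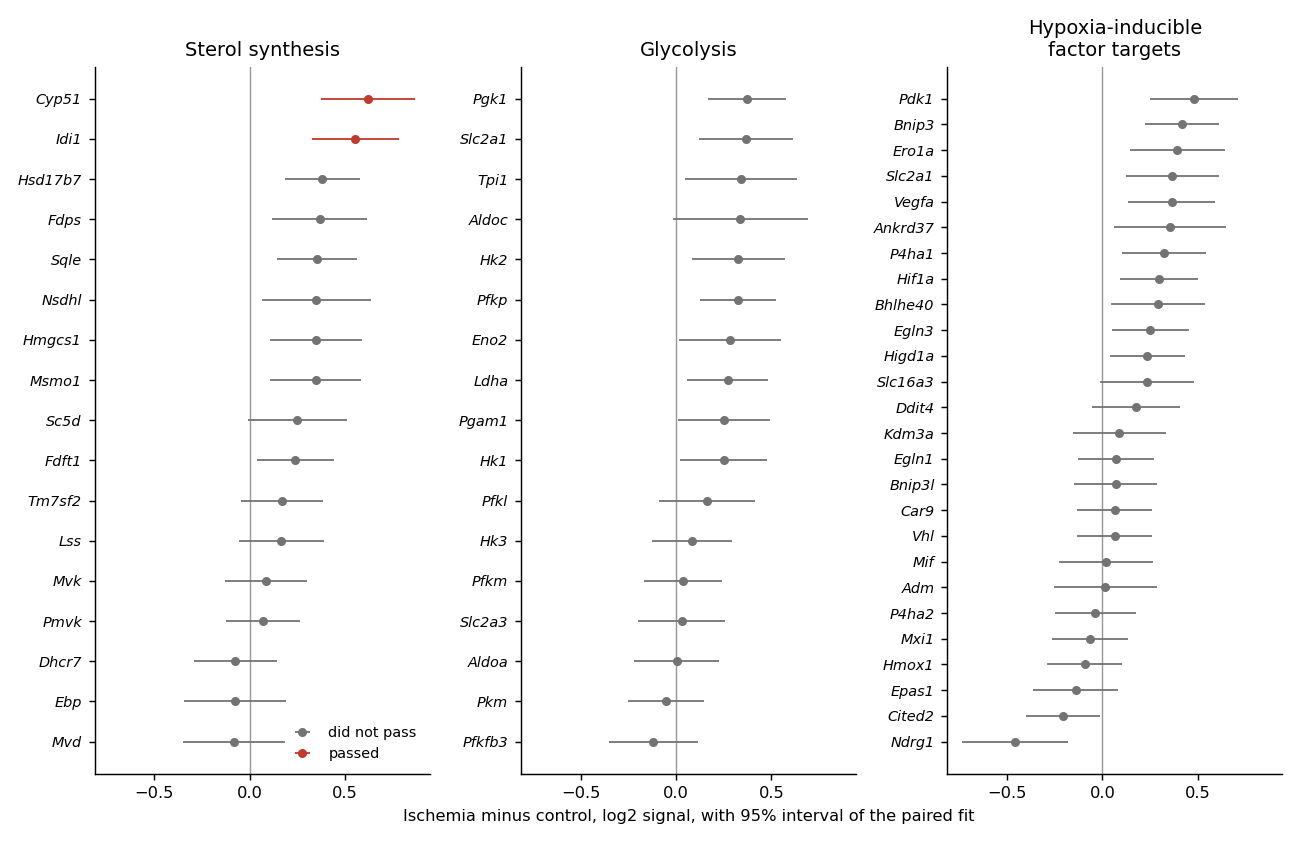
Ischemia minus control in log2 signal, with the 95% interval of the paired limma fit, for each tested gene of 3 lists in the knockout-labelled arrays. Cyp51 and Idi1 passed the adjusted test, shown in red, and Ndrg1 lies farthest below 0 at -0.46.

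No interferon-stimulated gene passed in the knockout-labelled cells. Of 38 tested, limma called 0 (smallest adjusted p 0.109), 16 were above 0 and the median change was -0.04. In limma an unadjusted p under 0.05 was found for 8 of the 38, 3 above and 5 below 0, beside 19.2% of all genes tested. Without the pairing it was found for 0 of them. In the wild-type arrays the same list had a median of 0.99, and 36 of 38 passed as higher (2.99% of all genes tested did). The list was chosen with earlier results of these data known. Ifit1 read 5.27, 5.82 and 5.05 in knockout-labelled controls and 4.75, 4.95 and 4.85 after ischemia, levels near or below the dim limit of 5.359. Its change was -0.53 (adjusted p = 0.165) against 1.80 in wild type. Mx2 changed by -0.45, Rsad2 by -0.31, Usp18 by -0.25 and Oas2 by -0.36, all without passing. Mx2 was below the dim limit in every knockout-labelled array. It was tested because of its wild-type means of 5.60 in controls and 6.91 after ischemia, so its knockout-labelled change is a change at the floor.

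The difference between the genotypes was tested directly, as the ischemia effect in knockout-labelled cells minus that in wild-type cells. It passed for 47 genes, 45 of them below 0 (0.295% of genes tested) and 2 above 0 (0.0131%). Of the 47, 16 are on the interferon list, which holds 38 of the 15273 genes tested. The difference was -2.33 for Ifit1 (95% interval -2.91 to -1.75, limma adjusted p = 0.00105), -1.93 for the chemokine Ccl5 (95% interval -2.33 to -1.53, adjusted p = 0.000591) and -1.37 for Timd4, a phosphatidylserine receptor (95% interval -1.68 to -1.07, adjusted p = 0.000591). Ccl5 read 7.24, 7.71 and 7.15 in knockout-labelled controls and 6.997, 7.34 and 6.70 after ischemia, while its wild-type mean went from 9.95 to 11.52, so the genotypes were already apart in controls. Across the 45 genes the knockout-labelled change ran from -0.578 to 0.325 with a median of -0.06, and the wild-type change from 0.206 to 2.23 with a median of 1.15. Mx1, Mx2 and Ifi206, among these 45, were below the dim limit in every knockout-labelled array. Near or below it were Ifit1, Ifit2 and Ifi213, at 5.38, 5.30 and 5.45 in knockout-labelled controls and 4.85, 5.40 and 5.18 after ischemia. The limit was set on the mean of all 12 arrays, so genes dim in these cells could be tested through their wild-type levels. All 45 were higher in each of the 3 wild-type pairs. In the knockout-labelled cells 18 were lower in all pairs, 4 were higher in all and 23 were mixed. The 45 genes were called from these same values, so the high wild-type changes and their agreement over pairs largely follow from that choice. These counts are no separate support. Without the replicate block 0 genes passed this test. Leaving out a knockout-labelled pair, with all wild-type arrays kept, gave 25, 20 and 27 genes without pairs 1, 2 and 3. Of these, 22, 20 and 22 were among the 47.

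Of the 47 genes, 3 had also passed in the knockout-labelled cells. Cxcl16 fell by 0.58 there and changed by 0.21 in wild type, a difference of -0.78 (95% interval -1.08 to -0.49, adjusted p = 0.0246). Chek1, a checkpoint kinase of DNA replication, read 5.60, 5.09 and 4.46 in knockout-labelled controls and 6.04, 5.90 and 5.20 after ischemia. It rose by 0.66 and changed by -0.19 in wild type, a difference of 0.85 (95% interval 0.54 to 1.16, adjusted p = 0.0228). Hells, a chromatin remodeller of replicating cells, rose by 0.58 and changed by -0.27 in wild type, also a difference of 0.85 (95% interval 0.52 to 1.17, adjusted p = 0.0309). For both genes array 3 was lowest in both groups, and the groups overlapped.

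**Figure D4:**
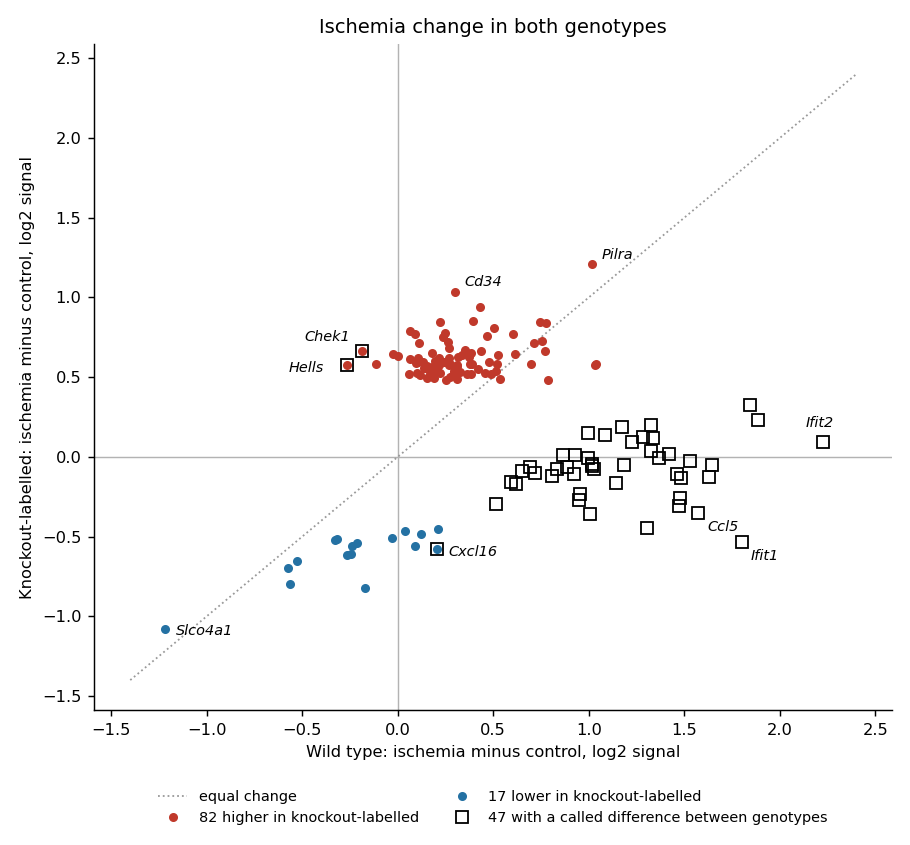
Ischemia minus control in log2 signal in wild-type arrays (horizontal) and knockout-labelled arrays (vertical) for the 82 rises (red), the 17 falls (blue) and the 47 genes whose change differed between genotypes (squares), with a dotted line at equal change. The 45 squares below the line lie between 0.206 and 2.23 in wild type and between -0.578 and 0.325 in knockout-labelled cells.

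Most genes called in the knockout-labelled cells had a change of the same sign in wild type. They were chosen by their knockout-labelled change, so a smaller change in wild type is no finding. Of the 82 rises, 78 were above 0 in wild type, where 52.4% of all genes were, with a median of 0.28, and 23 passed there as higher (2.99% of all genes did). Of the 17 falls, 12 were below 0 in wild type with a median of -0.24, and 3 passed as lower (0.74% of all genes did). These 3 are Slco4a1 at -1.22, Folr2 at -0.58 and Stab1 at -0.53. Pilra changed by 1.02 in wild type, Nes by 0.74, Csf1 by 0.60 and Cd34 by 0.30. The difference for Cd34 was 0.73 (95% interval 0.36 to 1.11, limma adjusted p = 0.146), and for Tfrc, 0.63 (95% interval 0.30 to 0.95, adjusted p = 0.165), so neither passed. C1qa and C1qb changed by 0.12 and 0.21 in wild type, with differences of -0.60 (adjusted p = 0.118) and -0.66 (adjusted p = 0.066) that did not pass. For sterol synthesis the wild-type median was 0.24, next to 0.25 here, and for glycolysis 0.07, next to 0.25.

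Other immune lists had few members or none past the threshold in the knockout-labelled cells. Of 26 inflammatory genes limma called 0 (7 at an unadjusted p under 0.05, beside 19.2% of all genes tested). Of the 26, 9 were above 0 and the median was -0.16. Ccl3 changed by 0.37 (-0.00948 without ischemia array 1, unpaired), Cxcl10 by -0.46 and Tnf by -0.00. Of 26 Toll-like receptor pathway genes limma called 0 (6 at an unadjusted p under 0.05, beside the same 19.2%), with a median of 0.08. Ly96, the co-receptor of Tlr4, read 6.64, 6.56 and 6.31 in controls and 7.37, 7.41 and 7.26 after ischemia, a change of 0.84 with no overlap that did not pass (adjusted p = 0.14). Tlr1 changed by 0.42, from -0.09 in pair 1 to 1.01 in pair 3, and by -0.04 without control array 3 in the unpaired fit. Tlr2 changed by -0.25 and Tlr9 by -0.28. Of 23 disease-associated microglia genes, 19 were above 0 with a median of 0.12. Csf1 and the cystatin Cst7 passed, the latter with a rise of 0.48 (adjusted p = 0.0369), where 0.537% of all genes tested passed as higher. Of 17 alternative activation genes Il13ra1 alone passed, with Chil3 at 0.47 (adjusted p = 0.103) and Il4ra at -0.27 (adjusted p = 0.231), and the median was 0.03.

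No gene passed on the lists for antigen presentation (12 tested, median -0.03), cell division (28, median -0.04), NRF2 targets (19, median -0.03), stress response (19, median 0.01), the respiratory chain (28, median 0.08) or the lysosome (26, median 0.05). Over their 132 distinct genes, 21 had an unadjusted p under 0.05 in limma's paired fit, beside 19.2% of all genes tested, and 7 without the pairing. The values nearest to the threshold were cytochrome c, Cycs, at 0.51 (adjusted p = 0.0575), the chaperone Hspa5 at 0.48 (adjusted p = 0.058) and Hsph1 at 0.40 (adjusted p = 0.0767). The proliferation genes Mki67 and Ube2c changed by -0.55 (adjusted p = 0.0974) and -0.51 (adjusted p = 0.0909), lower in all 3 pairs. The wild-type median of the cell division list was -0.34, and 7 of its genes passed there as lower (0.74% of all genes tested did). Of its differences between genotypes, 0 passed.

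**Figure D5:**
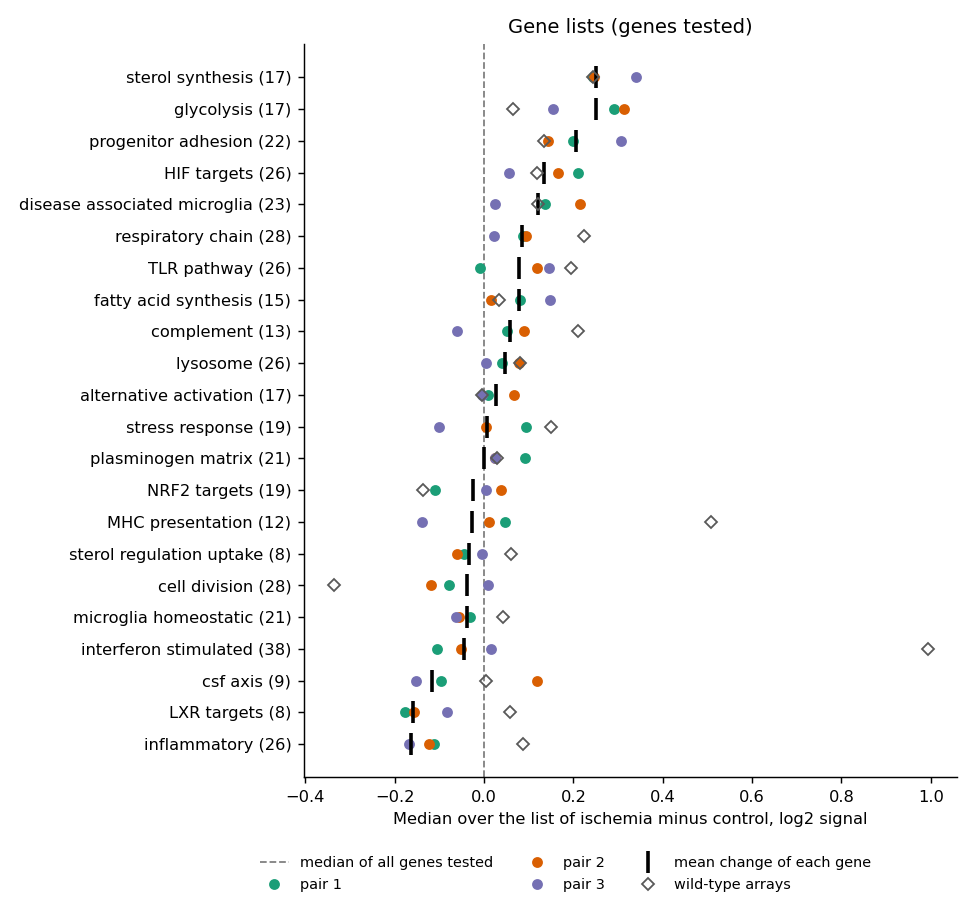
Median ischemia minus control in log2 signal for 22 gene lists, in each of the 3 knockout-labelled pairs (circles), for the mean of the pairs (bars) and in wild type (diamonds), with a dashed line at the median of all genes tested. Sterol synthesis and glycolysis lie highest in the knockout-labelled cells at 0.25, and the interferon list lies at -0.04 in knockout-labelled and 0.99 in wild-type arrays.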

How the data were processed

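RNA of 12 microglial samples was hybridised to Affymetrix whole-transcript mouse arrays, 1 array per sample. Per the submitters' processing notes, the authors made the deposited log2 values in Affymetrix Expression Console 1.1 by RMA, which corrects background and normalizes across arrays. The sources used here give no genome build. RMA draws arrays to one distribution, so a shift shared by most genes would not be seen. Of 35557 probe sets, 21789 had 1 gene symbol, 1621 had several and 12147 were unlisted. Symbols were updated through gene identifiers for 21698.

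Ischemia effects in both genotypes and their difference were fitted to the 12 arrays together (limma 3.58.1, R 4.3.3), with the replicate number within genotype as a block, Benjamini-Hochberg adjustment over 15273 genes and a call at an adjusted p under 0.05. The labels do not say what the numbers stand for. Same-numbered knockout-labelled arrays deviated together from their group means, with correlations of 0.356, 0.316 and 0.49, all above 0.1. Differently numbered ones gave -0.439 to 0.219. Deviations from a group mean cancel out over the arrays of that group, so positive same-numbered values push the others down. The contrast between them is therefore partly fixed in advance. Precision is limited by the small number of arrays. The procedure was tested on simulated data.

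Genes are named by rule: the 20 largest rises and falls among calls, Tlr4, called or largest members of each list, and genes differing between genotypes. The genes marked in the report as chosen after their values were seen, and the Pgk1 and Hmgcs1 promoters, fall outside this rule. Members and lists were chosen with earlier results of these data known. Alternatives were the pairing, the dim limit, normalization, probe set summary, variance model and leaving arrays out.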

Additional observations from a re-analysis of the deposited data

Results flagged for a closer look

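The ischemia effect differed between the genotypes, by the direct test of the difference in limma's paired fit, for 12 of the genes named. The difference is knockout-labelled minus wild type on the log2 scale. It was -2.33 for Ifit1, -1.93 for Ccl5, -1.78 for Rsad2, -1.75 for Mx2 and -1.73 for Usp18. It was -1.62 for Zbp1, -1.41 for Phf11a, -1.37 for Timd4 and -1.36 for Oas2. These 9 genes were higher after ischemia in all 3 wild-type pairs, which largely follows from choosing them by this difference. Of them, Mx2 was below the dim limit in every knockout-labelled array. Ifit1 had knockout-labelled means of 5.38 in controls and 4.85 after ischemia, beside that limit of 5.359. Cxcl16 had a difference of -0.78, being lower in all 3 knockout-labelled pairs. Chek1 and Hells had differences of 0.85 and 0.85, being higher in all 3 knockout-labelled pairs.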

How the results depend on the processing

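The counts depend on the pairing. With no replicate block, 0 genes were called higher, 0 lower and 0 differing between genotypes, and the fit of only the 6 knockout-labelled arrays without the block, added after seeing the data, also gave 0 higher and 0 lower, with 1250 genes at an unadjusted p under 0.05. A replicate block of 3 levels shared by both genotypes gave 0 higher, 1 lower and 0 differing. Leaving out a numbered knockout-labelled pair, or 1 knockout-labelled array without the block, gave from 0 to 628 genes higher and from 0 to 125 lower. It gave 20 to 27 differing with the block and 0 to 1 without it. Where a group was left with 1 or 2 samples, the spread was pooled over the other groups. Without the filter on dim genes the counts were 29, 7 and 27. With the limit at the 50th percentile they were 148 higher and 32 lower, with median centring 153 higher, and with eBayes trend and robust 232 higher and 43 lower. Quantile normalization gave 83 higher and 37 lower, so 69.2% of its calls were higher, beside 82.8%. Counts not given here stayed within 1.5 times the main ones. Of 418 list medians under the alternatives, 55 moved by more than the SD over pairs. For 13 lists every median kept its sign, with ranges of 0.17 to 0.35 for sterol synthesis, 0.16 to 0.30 for glycolysis, 0.08 to 0.22 for hypoxia genes and -0.07 to -0.01 for interferon genes. For the other 9 lists, all with main medians within 0.06 of 0, the sign changed under at least 1 alternative. All 99 calls kept their direction in every alternative, 88 of them being measured at the 50th percentile. Fits that leave out a pair, or that change only the block on all arrays, could not have altered a direction, since each gene had the same sign in every pair. Among the named genes, 3 changes that had not passed turned sign when 1 array was left out without the block. Ccl3 went from 0.37 to -0.00948 without ischemia array 1, and without control array 3 Tlr1 went from 0.42 to -0.0400 and Tlr4 from 0.10 to -0.0425. The cause of these shifts was not tested. With 3 arrays a group, the fall of C1qb by 0.45 was the smallest change to pass, and Ifit1 and Chek1 had signals near the dim limit. Mx2 was below that limit in every knockout-labelled array.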
